A study of Mus musculus with 12 samples.

Results

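The contacts described here are promoter contacts with a strong fetal excess of counts. They are within-chromosome contacts longer than 60 kb whose fetal and adult counts summed to at least 30 and whose log2 ratio, log2((fetal count + 1)/(adult count + 1)), was at least 1. Of 89545 contacts listed in the authors' deposited table, 32136 passed the limits on distance and summed count, and 3778 of these (11.8%) reached the ratio. The opposite ratio, towards the adult, was reached by 1022 (3.18%). The contacts were selected on these counts, so their ratios, their number and their runs are given as a description with no test.

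The contacts came from Capture-C of mouse haematopoietic stem cells (HSCs) of the strain B6129SF1. One population was sorted from fetal liver at embryonic day 14.5 and the other from bone marrow at an age of 6 to 8 weeks, both with the gate Lin-Sca1+cKit+CD135-, which also holds multipotent progenitors. Each population had 4 libraries, 2 in each of 2 batches, and the batches captured largely different promoters. Chromatin was cut with DpnII, an enzyme that cuts at GATC. Whether mice were pooled is not given in the sources used here. Samples of the HPC7 line were not analysed here. The counts were deposited pooled per population and batch, so no value below has a replicate error, and a difference between populations could not be set against the spread between libraries.

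A promoter can be brought close to distant regulatory DNA by looping or by general folding of the chromosome. Capture-C records such proximity by ligating cross-linked fragments and enriching the ligation products of chosen promoters. Active enhancers, accessible chromatin and other active promoters are common partners of promoters in blood cells. Fetal liver HSCs divide actively and express a fetal gene program that includes the RNA-binding Igf2bp proteins, the imprinted genes Dlk1, H19 and Igf2, and others, whereas adult bone marrow HSCs are mostly quiescent.

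The promoters of Igf2bp3, Dlk1, Klf1 and Prdx2 carry several of the contacts described below, and Klf1 and Prdx2 contacted each other. Their 250 bases before the RefSeq transcription start (assembly GRCm38.p6, written 5′ to 3′ along the gene) are shown with matches to 5 short motifs in capitals. The windows lie at chr6:49214955-49215204 (minus strand) for Igf2bp3, chr12:109452573-109452822 (plus) for Dlk1, chr8:84901732-84901981 (plus) for Klf1 and chr8:84969372-84969621 (plus) for Prdx2. All other coordinates below are of mm9, the build of the deposited table.
Igf2bp3: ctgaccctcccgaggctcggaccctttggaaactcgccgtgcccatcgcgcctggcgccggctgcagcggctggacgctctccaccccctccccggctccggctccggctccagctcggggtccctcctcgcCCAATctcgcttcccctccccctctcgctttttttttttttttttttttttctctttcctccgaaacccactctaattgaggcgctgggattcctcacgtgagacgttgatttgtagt
Dlk1: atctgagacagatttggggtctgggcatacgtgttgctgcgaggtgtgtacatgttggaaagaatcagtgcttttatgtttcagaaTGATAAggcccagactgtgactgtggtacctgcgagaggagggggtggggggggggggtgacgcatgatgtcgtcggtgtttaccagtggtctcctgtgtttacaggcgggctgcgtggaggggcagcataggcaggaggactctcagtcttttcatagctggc
Klf1: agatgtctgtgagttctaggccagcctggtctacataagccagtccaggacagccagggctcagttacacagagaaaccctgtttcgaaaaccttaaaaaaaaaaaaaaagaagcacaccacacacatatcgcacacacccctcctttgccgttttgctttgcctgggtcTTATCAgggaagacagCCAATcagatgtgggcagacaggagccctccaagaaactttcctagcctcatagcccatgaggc
Prdx2: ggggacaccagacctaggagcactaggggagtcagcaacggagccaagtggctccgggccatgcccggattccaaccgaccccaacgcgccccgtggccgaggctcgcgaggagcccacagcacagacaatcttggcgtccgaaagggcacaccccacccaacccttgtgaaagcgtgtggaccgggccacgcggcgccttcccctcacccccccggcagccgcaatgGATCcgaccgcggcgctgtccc

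The motifs searched on both strands were the GC box GGGCGG, the CCAAT box, the GATA motif in the form AGATAA or in the form TGATAA, the ETS motif CCGGAAG and the DpnII site GATC. None of these contains another. Igf2bp3 held a CCAAT match 118 bases before the start, Dlk1 a TGATAA match at 164, Klf1 a TTATCA (the reverse of TGATAA) at 80 and CCAAT at 64, and Prdx2 a GATC at 22. Of 1311 genes holding a contact with fetal excess, 1060 matched the RefSeq table. So did 954 of the 1162 genes that had contacts passing the limits but none with fetal excess. The shares of windows with a match in these sets were 55.8% against 55.7% for the GC box, 34.4% against 35.6% for CCAAT, 9.91% against 8.68% for GATA and 11.7% against 11.4% for ETS. Over all 32851 RefSeq windows they were 32.7%, 33.8%, 16.6% and 6.91%. A DpnII site was in 41.5%, 39.3% and 41.9% of the windows of the respective sets.

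Of 5707 first-batch contacts over 60 kb with at least 30 counts, 366 reached the fetal ratio (6.41%) and 152 the adult ratio (2.66%). The second-batch numbers were 3412 of 26429 (12.9%) and 870 (3.29%), again fetal and adult. The contacts with fetal excess belonged to 259 of 970 promoters in the first batch and to 1076 of 1650 in the second. Their median counts were 26 fetal and 10 adult in the first batch (quartiles 23 to 31 and 9 to 13), and 28 and 11 in the second (25 to 35 and 9 to 14). The median log2 ratio was 1.18 and 1.22, and 17 and 148 contacts exceeded or reached a ratio of 2. The authors' caller had scored 46.4% of those of the first batch and 4.95% of those of the second in both populations, against 78.5% and 40.8% of all contacts passing the limits. Their median distance was 107 kb and 121 kb, against 105 kb and 112 kb over all contacts passing the limits.

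**Figure D1:**
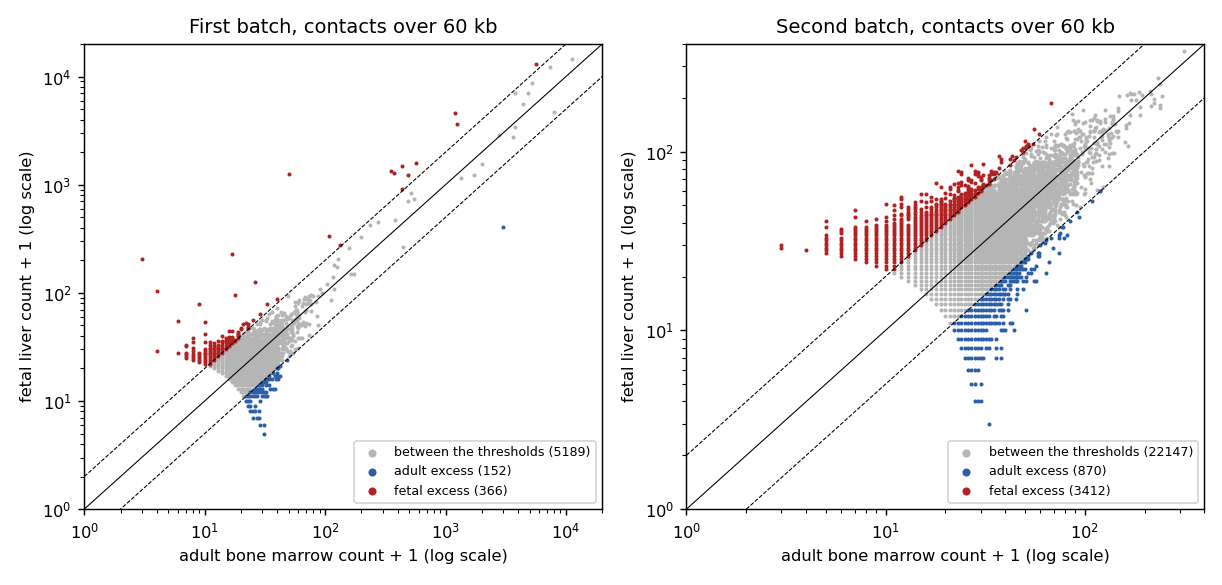
Fetal count against adult count, each plus 1 and on log axes, for the contacts over 60 kb with at least 30 summed counts, 1 point per pair of counts, in each batch. Red points reach a log2 ratio of 1 towards the fetus (366 and 3412 contacts), blue points the same ratio towards the adult (152 and 870), the solid line is equality and dashed lines mark the thresholds; most red points lie at low counts.

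These numbers depended on how the 2 populations were put on a common scale. Fetal counts were the higher in total, with 55.1% (first batch) and 53.2% (second batch) of the counts of contacts passing the limits. When fetal counts were scaled to the adult total over listed within-chromosome contacts, 162 contacts reached the fetal and 325 the adult ratio in the first batch, so that the asymmetry turned round, and 2129 and 1272 in the second. When ratios were centred on the median contact instead, which had a log2 ratio of 0.09 in the first batch and 0.27 in the second, 254 first-batch contacts reached the fetal and 202 the adult ratio. The second batch then had 1463 and 1873, so that its asymmetry turned round. Fetal excess here therefore means excess in the counts as deposited.

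The excess was also more frequent where fewer counts supported a contact. Of the second batch's contacts with 30 to 34 summed counts, 30.79% reached the fetal ratio, 13.0% of those with 40 to 49, and 2.89% of those with 100 or more, while the adult ratio was reached by 9.22%, 3.14% and 0.771%. Among first-batch contacts the fetal share was 7.38% at 30 to 34 counts and 2.80% at 70 to 99, but 15.7% (20 of 127) at 100 or more. With distance, the second batch's fetal share went from 10.8% at 60 to 100 kb to 15.6% at 200 to 300 kb, and was 10.1% over 1000 kb. Its adult share in these classes was 2.80%, 3.59% and 11.6%. The first batch's fetal shares were 6.33%, 5.17% and 10.3%, with adult shares of 2.14%, 3.45% and 8.05%. An exact Clopper-Pearson 95% interval of a contact's fetal share of counts, which covers counting error only, lay wholly above the pooled fetal share for 148 of the 366 contacts (40.4%) of the first batch and for 2415 of the 3412 (70.8%) of the second. Against an equal share of 50% the numbers were 320 and 3230. The rule used the same counts, so these numbers describe precision and test nothing. At the edge of the rule, 56 and 398 contacts had a ratio of exactly 1, such as Stat5b (21 fetal and 10 adult counts) and Gdpd1 (also 21 and 10). Just outside lay Ncoa4 (46 and 23, ratio 0.97) and Asf1b (96 and 48, ratio 0.99). At the limit on counts, 28 and 186 contacts with fetal excess had a sum of exactly 30, and 50 and 208 contacts of that ratio had a sum of 29.

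**Figure D2:**
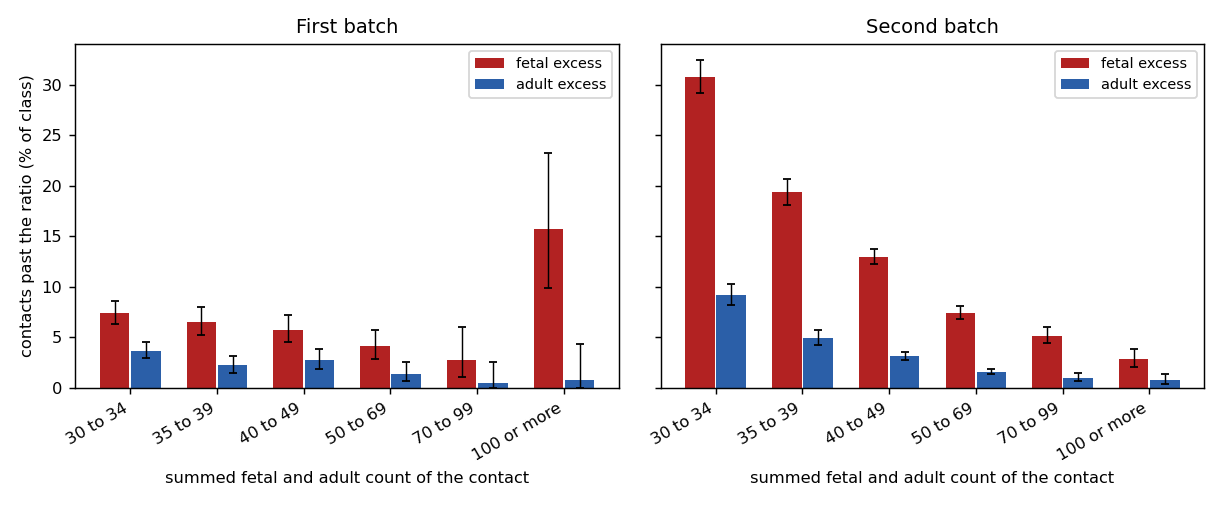
Share of contacts over 60 kb that reach a log2 ratio of 1 towards the fetus (red) or the adult (blue), in percent of each class of summed count, in each batch. Error bars are exact Clopper-Pearson 95% intervals of the share; in the second batch the fetal share falls from 30.79% at 30 to 34 counts to 2.89% at 100 or more.

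The contacts with fetal excess were spread over many promoters. The 10 promoters with the most held 13.4% of them in the first batch and 4.60% in the second. For adult excess the shares of the 10 leading promoters were 15.8% and 6.32%, and over all contacts passing the limits 8.55% and 3.16%. A single contact with fetal excess was held by 195 of the 259 promoters of the first batch and by 373 of the 1076 of the second. In the second batch 225 promoters held 5 or more and together 1709 contacts. With adult excess, 11 promoters of that batch held 5 or more and together 60 contacts.

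Acer3, an alkaline ceramidase gene, held the most in the second batch, with 19 of its 56 contacts passing the limits. Usp10, a deubiquitinase gene, held 17 of 50, and Lyrm5 17 of 74. Another 16 each were held by 2410003K15Rik (Malsu1 in RefSeq, a mitochondrial ribosome factor; 16 of 67), Cdca8 (the chromosomal passenger protein borealin; 16 of 76) and Asf1b (a histone chaperone; 16 of 86). Mrps12, of the small mitochondrial ribosomal subunit, held 15 of 85 and Ndufa9, of respiratory complex I, 14 of 36. These shares ran from 17.6% at Mrps12 to 38.9% at Ndufa9, beside 12.9% over all second-batch contacts passing the limits. Over these promoters the contacts with fetal excess summed to 571 fetal and 227 adult counts at Acer3, 517 and 204 at Usp10 and 670 and 261 at Ndufa9. Over all their contacts passing the limits, median log2 ratios lay between 0.26 at Mrps12 and 0.77 at Ndufa9, and Mrps12 also held 6 contacts with adult excess. After scaling, Acer3 kept 15 contacts past the ratio, Usp10 and Ndufa9 9 each, Cdca8 6 and Lyrm5 5.

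Among first-batch promoters Dsn1, a kinetochore gene, held 8 of 51 (15.7%) and Ywhaz, encoding a 14-3-3 protein, 8 of 58 (13.8%). The share over all first-batch contacts passing the limits was 6.41%. Mcam, an adhesion molecule gene, held 6 of 46, BC056474 5 of 19, and 4 each were held by the tumour necrosis factor receptor gene Tnfrsf1a (of 8), Arhgef2 (of 14), the MAP kinase phosphatase gene Dusp1 (of 13) and Egfl7 (of 27). After scaling, Ywhaz kept 5, Dsn1 3, Mcam, BC056474, Tnfrsf1a, Arhgef2 and Egfl7 2 each, and Dusp1 1. Among promoters with at least 8 contacts passing the limits, the densest were Sept4 (7 of 11), Ano10 (5 of 8), Kalrn (7 of 12), Col5a1 (7 of 12) and Zcchc3 (10 of 20) in the second batch, named after their values were seen.

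**Figure D3:**
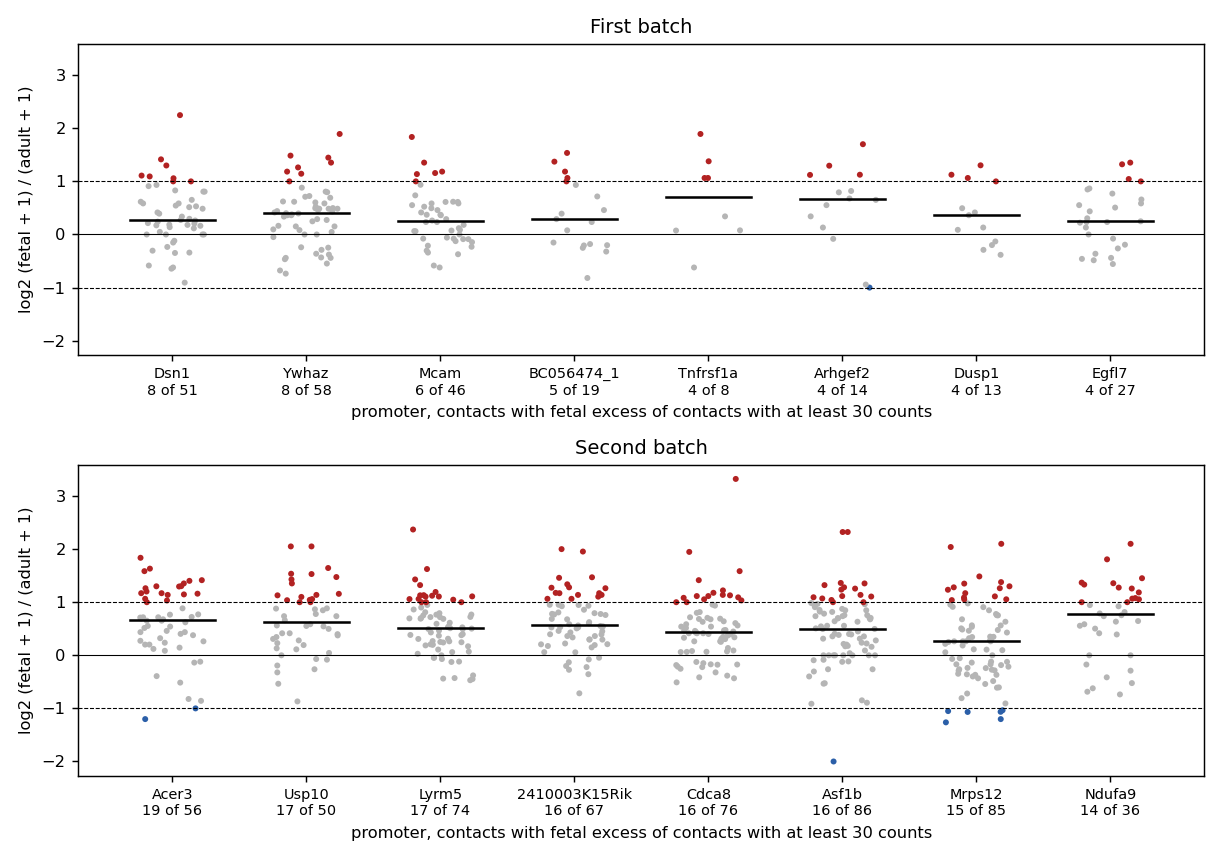
Log2 ratio of fetal to adult counts for every contact over 60 kb with at least 30 counts of the 8 promoters that hold the most contacts with fetal excess in each batch; horizontal position within a promoter is arbitrary. Red points reach a ratio of 1, blue points -1, black bars are medians, and the labels give the number with fetal excess, from 4 of 8 at Tnfrsf1a to 19 of 56 at Acer3.

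Promoters of the fetal program held 17 such contacts of 69 that passed the limits and no contact with adult excess, 2 of 25 in the first batch and 15 of 44 in the second. Most of the 15 were at Dlk1 (9 of 26) and Igf2bp1 (4 of 5), while Igf2bp3 held 1 of 1, Arid3a 1 of 10 and Igf2bp2 0 of 2. In the first batch H19_1 held 2 of 11, and the entries H19, Igf2_2, Mycn, Mycn_1 and Sox17 held none. The regulators tied to adult HSCs held 3 fetal and 3 adult among 41, and regulators of both stages 5 and 3 among 75. The share over all contacts was 6.41% in the first batch and 12.9% in the second, so the first-batch fetal-program share (8%) and those of the other lists (7.32% and 6.67%) lay near it. The median log2 ratio over fetal-program contacts was 0.09 in the first batch and 0.55 in the second, beside 0.09 and 0.27 over all contacts passing the limits. After scaling, 1 and 8 fetal-program contacts still reached the ratio, and 1 and 5 after centring, with none towards the adult. The first-batch adult regulators went from 2 fetal and 3 adult to 0 and 6 after scaling, and the regulators of both stages from 5 and 3 to 2 and 12. These lists were chosen with results of these data known.

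Dlk1, an imprinted gene for a transmembrane protein of the Notch-ligand type, held 9 of the 15. Its captured fragment lies at chr12:110691246-110691873, and its deposited FPKM (fragments per length of transcript and sequencing depth) was 31.9 in fetal and 0.942 in adult HSCs. The fetal and adult counts were 46 and 21 at 71.4 kb from the fragment, and 73 and 32 in the bin beside it at 73.4 kb. Further contacts had 32 and 11 at 83.4 kb, 31 and 11 at 93.4 kb, 49 and 21 at 97.4 kb and 26 and 10 at 105 kb. The last of the downstream series had 33 and 16 at 131 kb and 32 and 14 at 141 kb, and a single one, at 383 kb on the other side, had 27 and 8. Fetal counts were the higher at 21 of the 26 Dlk1 contacts that passed the limits, equal at 3 and lower at 2, with a median log2 ratio of 0.59. Of the 9 bins with fetal excess, 6 were marked as open chromatin (ATAC) in fetal HSCs, none as active enhancer in fetal HSCs and 2 as active enhancer in adult HSCs. After scaling, 6 of the 9 reached the ratio, and 4 after centring. The 9 listed Dlk1 contacts at or under 60 kb, which the rule did not use, summed to 371 fetal and 276 adult counts (log2 ratio 0.43).

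Igf2bp1 and Igf2bp3 encode RNA-binding proteins of the fetal program. Igf2bp1 (chr11:95866869-95867917; FPKM 6.43 fetal, 0.0172 adult) had 4 contacts with fetal excess of 5. Its fetal and adult counts were 30 and 14 at 176 kb and 25 and 12 in the neighbouring bin at 174 kb, both bins marked as active enhancer in fetal HSCs alone. On the other side they were 23 and 10 at 61.6 kb and 33 and 12 at 67.6 kb, the latter a bin marked as active promoter in both populations and as open chromatin in the fetal one alone. The bin next to it, at 69.6 kb, had 20 and 21. Only 1 of the 4 reached the ratio after scaling.

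For Igf2bp3 (chr6:49164623-49165211; FPKM 6.29 fetal, 0.159 adult) a single contact passed the limits, and it had 133 fetal and 55 adult counts, the second highest sum among the contacts with fetal excess of the second batch. Its bin, 140 kb away, holds the captured promoter of 2410003K15Rik and was marked as active promoter and open in both populations. From the 2410003K15Rik side the same pair had 92 and 48 counts (log2 ratio 0.92), just short of the rule. 2410003K15Rik is itself among the promoters with the most contacts with fetal excess (FPKM 5.88 fetal, 1.56 adult). A second Igf2bp3 contact, at 152 kb on the opposite side, had 23 and 6 counts and missed the limit of 30 by 1 count. H19, an imprinted non-coding RNA gene (FPKM 209 and 2.15 for its entry H19_1), held 2 of 11 at that entry, with 30 and 12 counts at 65.2 kb and 29 and 14 at 135 kb. The gene's other entry, H19 (FPKM 168 and 1.63), held 0 of 2. The share over all first-batch contacts passing the limits was 6.41%.

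Klf1, the erythroid Krüppel-like transcription factor gene, held 6 of 34 (chr8:87424745-87426183; FPKM 24.0 fetal, 2.40 adult), named after its values were seen. Its share of 17.6% stood beside 12.9% over all second-batch contacts passing the limits. Fetal and adult counts were 34 and 15 at 184 kb, 57 and 20 at 178 kb, 30 and 10 at 166 kb and 27 and 12 at 156 kb. The last 3 of these bins were marked as active enhancer in both populations. The bin at 176 kb, beside that at 178 kb and with the same enhancer and open chromatin marks, had 23 and 29. On the other side were 58 and 27 counts at 67.5 kb, in the bin of the Prdx2 promoter, and 27 and 13 at 110 kb. Klf1 also had 3 contacts with adult excess, among them 12 fetal and 50 adult counts at 100.5 kb, and only 2 of the 6 reached the ratio after scaling. Fetal counts were the higher at 20 of its 34 contacts and lower at 14. The median log2 ratio was 0.22, beside 0.27 over all second-batch contacts passing the limits. Klf1 contacts without fetal excess summed to 784 fetal and 814 adult counts. The bin at chr8:87246001-87248001, which gave Klf1 57 and 20 counts, was also reached with fetal excess by Asf1b (29 and 5) and Samd1 (23 and 7). It was the only bin with fetal excess from more than 2 promoters, while 39 of the 3372 bins with fetal excess in the second batch had it from at least 2. For adult excess this held for 4 of 866 bins of that batch, and sharing over all contacts passing the limits was not counted. The bin reached by Klf1, Asf1b and Samd1 holds the captured promoter of G430095P16Rik, of whose own 34 contacts passing the limits none reached the fetal ratio. Epor, the erythropoietin receptor gene (FPKM 15.8 and 6.22), held 5 of 15, the strongest with 30 fetal and 6 adult counts at 191 kb.

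**Figure D4:**
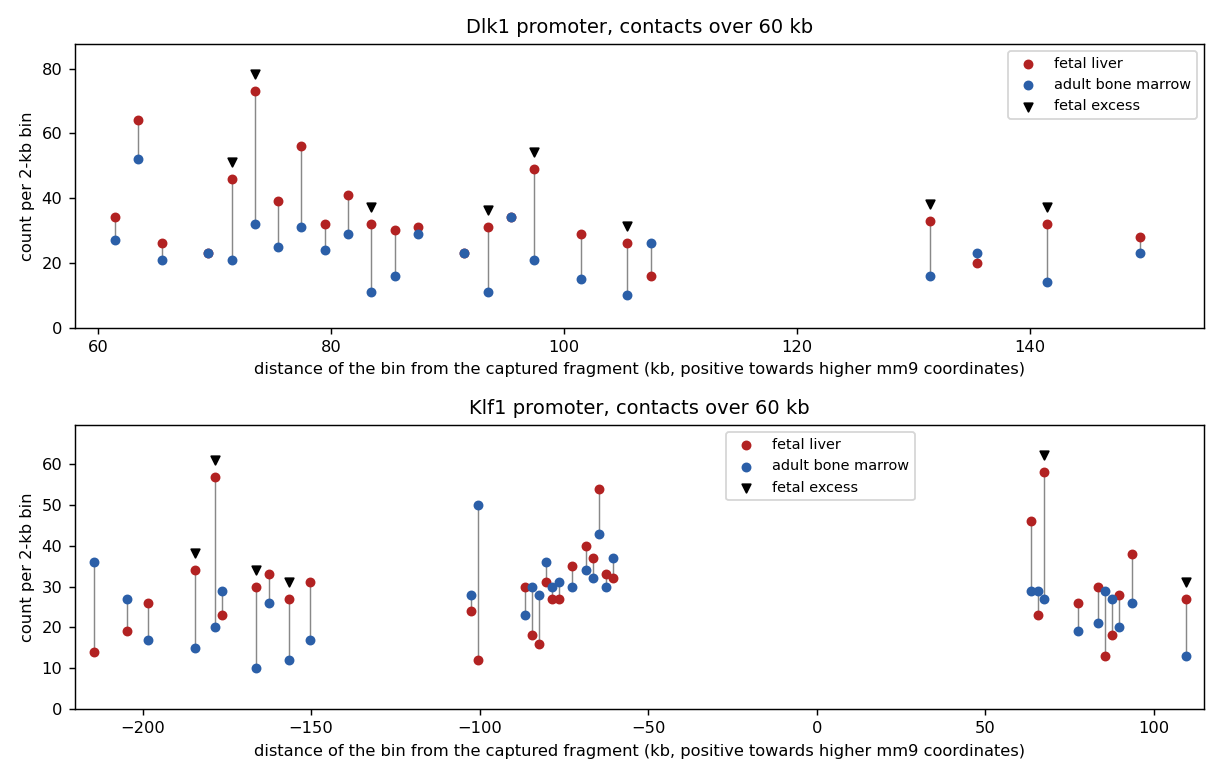
Fetal (red) and adult (blue) counts per 2-kb bin against the distance of the bin from the captured fragment, for contacts over 60 kb with at least 30 summed counts at the Dlk1 and Klf1 promoters; grey lines join the counts of a bin and black triangles mark fetal excess. Dlk1 contacts at 383 and 517 kb lie outside the plotted range; 8 of the 9 Dlk1 contacts with fetal excess are shown, all on 1 side, and Klf1 shows bins of fetal and of adult excess interleaved.

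The deposited expression of marker genes differed between the sorted populations. A marker is called captured here when its promoter has at least 1 listed contact. Over the 9 captured of 14 macrophage markers the summed FPKM was 58.9 in fetal and 2.96 in adult HSCs, with all 9 higher in the fetal population. Over the 7 captured of 9 granulocyte and monocyte markers it was 135.9 and 32.9, with all 7 higher. HSC and progenitor markers summed to 178.9 and 257.5, with 3 of 9 higher in the fetal population, and mast cell and megakaryocyte markers to 21.4 and 163.5, with none of 3 higher. Erythroid markers summed to 169.0 and 166.1, with 8 of 9 higher in the fetal population and the sum carried by Car2 (74.7 and 148.0). Of the markers captured for these groups only the embryonic globin gene Hbb-bh1 was listed at 0, in adult HSCs. Flt3, which encodes the CD135 used to gate cells out, had 6.20 and 3.81, and Kit 32.8 and 50.5. Promoters of hepatocyte and lymphoid markers had no listed contact, which does not show whether they were captured. The captured erythroid promoters held 13 contacts with fetal excess of 90, at 3 genes, the granulocyte and monocyte promoters 4 of 48, the macrophage promoters 1 of 17, the mast cell and megakaryocyte promoters 2 of 20 and the HSC and progenitor promoters 1 of 19. The erythroid share was near the 12.9% over all second-batch contacts, and the granulocyte and monocyte share, almost all from that batch, lay below it. The macrophage and the HSC and progenitor contacts were of the first batch, and their shares lay below its 6.41%. Among mast cell and megakaryocyte promoters, Gp1bb of the second batch held 2 of 7 and Pf4 of the first 0 of 13. In bulk samples a change in the proportion of cells of a type and a change within each cell cannot be told apart, and the part of other cell types in the contacts was not tested.

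Among regulators of both stages, Tcf3, encoding an E protein, held 3 of 16 (FPKM 39.03 fetal and 21.3 adult). The counts were 29 and 10 at 76.2 kb, 23 and 9 at 104 kb and 24 and 11 at 108 kb. These bins carried no mark of active enhancer, active promoter or open chromatin in either population. Runx1 held 1 of 8 (22 and 9 counts) and Myb 1 of 4 (21 and 9). Of the adult regulators, Meis1_1 (FPKM 15.7 and 35.3) held 2 of 11, including a bin 143 kb away with 86 and 39 counts that was active enhancer and open in both populations. Neither of these reached the ratio after scaling. The gene's other entries went the other way, Meis1_2 with 1 contact of adult excess and none of fetal excess among 4, and Meis1 with 14 fetal and 25 adult counts at its single contact.

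The strongest ratios of the first batch included promoters of gene families with similar copies and contacts at very long distances. Klk1b22, of the kallikrein family, had 203 fetal and 2 adult counts at a bin 125 kb away, and Tgtp2, of the interferon-induced GTPases, 104 and 3 at 71.3 kb. The Tgtp2 bin holds the captured promoter of Tgtp1, from which the same pair had 31 and 27 counts (log2 ratio 0.19). Ddx5, an RNA helicase gene, had 1249 and 49 at 58083 kb, and Eif2s3x 227 and 16 at 59777 kb. AA987161 had 54 and 5 at 114 kb. Of the 20 first-batch contacts with 100 or more counts, the largest was Sp110 with 13038 and 5590 counts at 2386 kb. Others were Oas1c (4639 and 1193), Ifi47 (3614 and 1237), Ifi203 (1584 and 567), Cxcl2 (1486 and 433), Mthfs_1 (1237 and 490), H2-T22 (1331 and 352) and Rpl37a (1291 and 375). How reads from near-identical copies were placed is not given in the sources used here, so these contacts are uncertain. Contacts over 1 Mb made up 9 of the 366 and 7 of the 3412.

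The strongest second-batch ratios rested on small adult counts. Cdca8 had 29 fetal and 2 adult counts at 181 kb, the nucleoporin gene Nup188 28 and 2 at 101 kb, and Rps4y2 28 and 2 at 476 kb. Ern1, a sensor of unfolded proteins, had 40 and 4 at 211 kb, and Osbpl8 37 and 4 at 245 kb, in the bin of the Csrp2 promoter. At the opposite end of the counts, Ndufa9 had 185 and 67 at 89.7 kb, with a fetal share of 73.4% (exact 95% interval 67.5 to 78.8%).

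Few contacts with fetal excess had an adjacent bin that also had fetal excess. A neighbouring bin was listed for only 75.7% of them in the first batch and 49.3% in the second. Those without a listed neighbour could not form a run. Of the listed neighbours, 9.78% and 19.6% had a log2 ratio of at least 1, against 6.32% and 7.97% beside contacts between the thresholds. Runs of 2 or more neighbouring bins from the same promoter held 20 of the 366 contacts of the first batch (5.46%), all in pairs, and 375 of the 3412 of the second (10.99%), in 165 pairs, 12 runs of 3 and 2 longer ones. For contacts with adult excess the shares were 2.63% and 4.83%, and over all contacts passing the limits, whatever their ratio, 60.5% and 66.7%. The longest run, of 5 bins at chr4:124762001-124772001, belonged to Cdca8 (FPKM 25.4 and 10.7) and lay 149 to 157 kb from its promoter. Its counts were 107 and 50, 38 and 17, 48 and 22, 35 and 11, and 42 and 20. The first of these bins was an active promoter and open in both populations, and the other 4 carried no such mark.

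Nudt21, a cleavage factor gene (FPKM 36.4 and 23.2), had the run of 4, at chr8:96492001-96500001, with 26 and 5, 28 and 11, 33 and 16, and 27 and 13 counts. Its middle bins were open in fetal HSCs alone. Of the 12 runs of 3, Nab2 had the highest ratio, its bins summing to 110 and 34 at chr10:126990001-126996001, followed by Ripk2 with 102 and 36 at chr4:16004001-16010001. The metallothionein gene Mt1 (FPKM 55.7 and 6.81), named after its values were seen, had 80 and 34 over 3 bins that were all open in fetal HSCs and not in adult HSCs. Rhd, the Rh blood group gene (FPKM 8.76 and 0.633), also named afterwards, had 116 and 49 over 3 bins. Among first-batch runs that of Dsn1, at chr2:156706001-156710001, had 37 and 7 and 23 and 11 counts, its first bin active enhancer in fetal HSCs alone. Its second bin was active enhancer in both populations, and both bins were open in adult HSCs alone. The BC020535 run had 47 and 18 in all and the Mthfs_1 run 1314 and 522. Leaving out neighbours that had fetal excess themselves, the bins beside a contact with fetal excess had a median log2 ratio of 0.21 in the first batch and 0.30 in the second, against 0.06 and 0.13 for bins beside contacts between the thresholds. Neighbours share libraries with the contacts, so this is a description.

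Marks of the distal bins were not used by the rule. Among second-batch contacts 13.8% of bins marked as active enhancer in fetal HSCs alone had fetal excess (153 of 1108; exact 95% interval 11.8 to 16.0%), against 7.30% of those marked in adult HSCs alone (65 of 891; 5.68 to 9.20%), 9.77% of those marked in both and 13.4% of those marked in neither. For adult excess the order of the first pair was opposite, at 2.44% and 4.60%. The difference between bins marked in the fetal and in the adult population alone was 25.7% against 15.2% at 30 to 39 summed counts, 13.4% against 4.93% at 40 to 59, and 6.41% against 5.65% at 60 or more. After scaling it was 8.84% against 3.93%, and after centring 5.69% against 1.91%. The first batch's 2 shares were 5.88% (3.52 to 9.14%) and 4.85% (2.35 to 8.75%), whose intervals overlapped.

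Fetal enhancers nevertheless accounted for few of the contacts. Bins marked in fetal HSCs alone made up 4.92% of the contacts with fetal excess of the first batch and 4.48% of the second, beside 5.36% and 4.19% of all contacts passing the limits. Lyrm5 held 5 such contacts, summing to 226 fetal and 94 adult counts, and Ywhaz, Slc7a1, Macrod1 and Mcm2 held 3 each. For open chromatin in the second batch, fetal excess was found at 16.6% of bins open in fetal HSCs alone, 11.7% open in adult HSCs alone, 10.0% open in both and 16.1% open in neither. The first-batch shares were 8.27%, 8.79%, 5.56% and 7.46%, so that bins open in fetal HSCs alone were not above those open in adult HSCs alone. No mark of enhancer, promoter or open chromatin was present at 29.5% of the bins with fetal excess in the first batch and 44.9% in the second, against 24.0% and 35.4% of all passing the limits.

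Expression was likewise independent of the rule. In the second batch, in which the authors marked every promoter passing the limits as differentially expressed, 56.9% of contacts with fetal excess were at promoters with the higher FPKM in fetal HSCs (1943 of 3412), against 44.7% of contacts with adult excess and 51.6% of all. Counted over promoters, which do not repeat an FPKM for each contact, the shares were 52.0%, 46.5% and 46.8%. The share of promoters with higher fetal FPKM was 37.3% (33.3 to 41.4%) where none of their contacts had fetal excess, 49.1% with 1, 48.7% with 2 to 4 and 63.6% (56.9 to 69.8%) with 5 or more. Promoters with more such contacts also had more contacts passing the limits, with medians of 3, 8, 19 and 37. At matched numbers, fetal excess was reached by 17.5% of contacts of fetal-higher and 13.5% of adult-higher promoters with 1 to 9 contacts, 14.4% and 11.3% with 10 to 19, and 13.8% and 11.2% with 20 or more.

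In the first batch the share over contacts was 53.6% for fetal excess, 42.1% for adult excess and 51.5% for all, and the order at matched numbers varied, at 7.59% and 7.11%, 7.26% and 4.77%, and 4.93% and 6.23%. Individual promoters went both ways. Col5a1 (FPKM 3.21 fetal, 0.234 adult) and Zcchc3 (11.5 and 3.20) had the higher fetal expression, whereas Kalrn (0.857 and 2.42), Lyrm5 (2.58 and 4.51) and Dusp1 (2.43 and 43.1) had the lower.

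Some bins with fetal excess contained another captured promoter, so that the pair could be read from the other end. This held for 45 contacts of the first batch (12.3%) and 164 of the second (4.81%). The shares were 13.2% and 8.05% for contacts with adult excess, and 7.69% and 5.37% for contacts between the thresholds. Of the pairs listed from the other end, 41 of 43 and 128 of 131 had a log2 ratio above 0 there, and 23 and 66 reached 1. For contacts between the thresholds the numbers were 222 of 402 and 586 of 1049 above 0, and 21 and 62 at 1 or more. Both readings come from the same libraries and may count the same read pairs, so the second is no replicate. Fetal excess from both ends under the rule was found for 41 pairs, 12 and 29 in the respective batches. Both genes had the higher FPKM in fetal HSCs in 17 of them, 1 gene in 17 and neither in 7. This split was not set beside that of other pairs.

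The pair with the highest ratio from both ends was Csrp2 and Osbpl8, 244 kb apart, with 36 fetal and 6 adult counts from Csrp2 and 37 and 4 from Osbpl8. Ampd3 and Sbf2 had 27 and 4 and 28 and 5, and Dedd and Fcer1g, in the first batch, 32 and 6 and 34 and 9. Cdk4, the cyclin-dependent kinase gene (FPKM 147.6 and 82.4), and Mars, a methionyl-tRNA synthetase gene (17.5 and 9.88), had 60 and 22 and 55 and 23 at 249 kb. Klf1 and Prdx2, a peroxiredoxin gene abundant in red cells (93.9 and 46.1), had 58 and 27 and 45 and 22, close to the threshold. Egfl7 and Notch1, which encodes a receptor of haematopoietic development, had 32 and 15 and 37 and 18. The most distant pair was 1300001I01Rik and Shpk, at 1450 kb, with 28 and 6 and 25 and 7. These pairs were named after their values were seen.

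**Figure D5:**
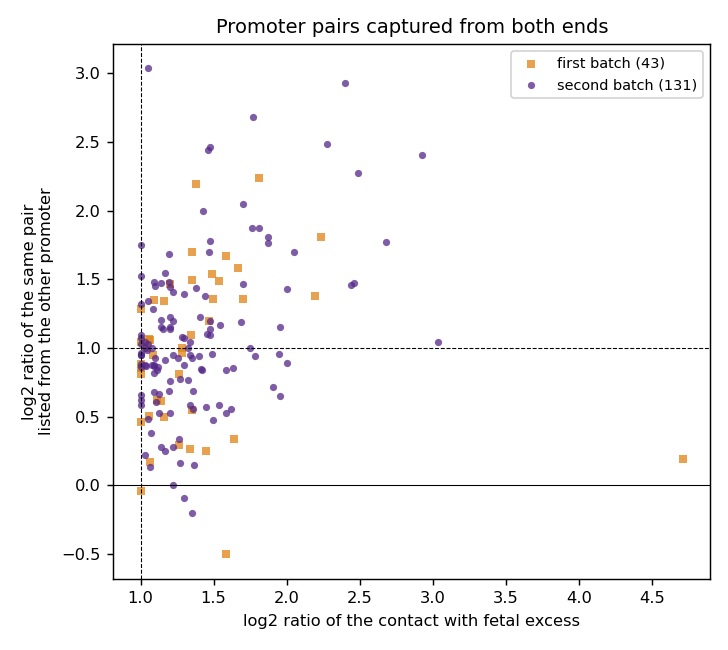
Log2 ratio of fetal to adult counts of a contact with fetal excess (horizontal) against that of the same pair listed from the partner promoter (vertical), for 43 pairs of the first and 131 of the second batch; a pair with fetal excess from both ends appears as 2 points. Dashed lines mark a ratio of 1; 41 of 43 and 128 of 131 points lie above 0 on the vertical axis.

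Libraries that did not choose the contacts could be consulted where a fragment was captured in both batches, which held for 19 fragments. They carried 33 contacts with fetal excess from 12 fragments, of which 12 were listed in the other batch. Listing there required a call in that batch, and 5 of the 12 had been called in the fetal population alone, 6 in both and 1 in the adult alone, so the 12 are not a sample free of the caller's choice. There, 10 had a log2 ratio above 0, 1 was at 0 and 1 below (-0.46), with a median of 0.44 (0.24 after scaling), and 2 reached 1. Summed over the 12, the counts were 381 fetal and 157 adult in the batch that chose them (log2 ratio 1.27) and 202 and 140 in the other (0.53). Of contacts between the thresholds at the same fragments, 87 of 164 were above 0 in the other batch, and the median was 0.09. The contacts that reached 1 in both were at the fragment of Rnmtl1 and Glod4, with 40 and 13 and then 12 and 3 counts at 180 kb, and at that of Serpini1 and Pdcd10, with 27 and 12 and then 9 and 3 at 302 kb, both called there in the fetal population alone. Further contacts, of Hspe1 (a mitochondrial chaperonin gene), had 56 and 25 and then 17 and 11, and of Nsa2 32 and 13 and then 52 and 35. The remaining 21 of the 33 were not listed there and have no second measurement.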

How the data were processed

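Per the submitters' processing notes, Trim Galore 0.41, Bowtie2 2.2.2 and the build mm9 were used. The treatment of duplicate reads is not given in the sources used here. The authors deposited, for each promoter fragment and 2-kb bin, a whole-number count and a caller score per population and batch, FPKM per promoter and 0 or 1 marks of bins. How the 2 libraries of a population and batch were joined into a count, and the scale of the score, are not given in the sources used here. The lowest scores above 0 were 1.3 (first batch) and 2 (second), and 12.6% and 90.2% of listed contacts over 60 kb had 30 counts or more.

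Distances ran between midpoints. Members and gene lists were chosen with earlier results of these data known. Named are the 8 promoters with the most members per batch, the 5 members of highest ratio, the 3 longest runs, members of list genes holding at least 3, promoters captured in both batches, and the members nearest the thresholds; other names are given as chosen after their values were seen or as examples from tables of counts, pairs or marks. Intervals are exact Clopper-Pearson and cover counting error only. No test was run, as no values per library were used. Counting in Python 3.11.15 with pandas 2.3.3 was tested on simulated data.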

Additional observations from a re-analysis of the deposited data

Results flagged for a closer look

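Contacts between chromosomes lie outside the rule and showed the excess as well. Of those with at least 30 summed counts, 29.4% (119 of 405) reached the fetal ratio in the first batch and 0.988% the adult ratio. In the second batch the shares were 7.16% (29 of 405) and 2.72%. They were noted because this signal lies outside the contacts compared above.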

How the results depend on the processing

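Of 83 values recomputed under another setting, 40 moved by less than their counting interval or, for numbers of contacts, by less than 1.5 times, and 43 moved further. The excess of fetal over adult contacts turned round in the first batch after scaling (162 against 325) and in the second after centring (1463 against 1873). The first batch's share at promoters with higher fetal FPKM, 53.6%, was under 50% with a higher ratio, count or distance limit and after scaling (49.7%). Values are given for the first and then the second batch. Scaling to equal totals left 162 and 2129 contacts, with 1.23% and 6.25% in runs and a first-batch median distance of 114 kb. A ratio of at least 1.5 left 67 and 726, with 0% and 0.551% in runs, 19.4% and 5.92% at the 10 leading promoters, 47.0% and 59.5% at promoters with higher fetal FPKM, and median distances of 114 kb and 131 kb. A summed count of at least 50 left 58 and 772, with 24.1% and 9.33% at the 10 leading promoters, 38.6% and 61.1% at promoters with higher fetal FPKM, and in the second batch 5.83% at fetal-only enhancers and a median distance of 106 kb. A distance over 150 kb left 90 and 1240, with 8.89% and 8.47% in runs and 26.7% and 7.50% at the 10 leading promoters, and in the first batch 1.11% at fetal-only enhancers and 47.8% at promoters with higher fetal FPKM. A score 1 unit above the lowest left 2173 in the second batch, with 9.39% in runs, and median distances of 115.4 kb and 125 kb. Allowing 1 missing bin put 11.5% and 17.2% in runs. Open chromatin in place of the enhancer mark gave 8.74% and 8.50% at fetal-only bins. Counting promoters once gave 52.0% with higher fetal FPKM in the second batch. Of 3 alternatives chosen after seeing the data, a pseudocount of 5 left 179 and 1980 contacts, centring left 1463 in the second batch, and scaling moved the other batch's median ratio from 0.44 to 0.24. The causes were not tested, beyond the fewer contacts that stricter limits leave by construction. No paired analysis was possible because the counts are pooled per population and batch, with no column per library. For the same reason no library could be left out, and low counts limit each single contact.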

Other observations

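By chromosome, the share with fetal excess in the second batch ranged from 5.83% on chromosome X (7 of 120 contacts passing the limits; exact 95% interval 2.38 to 11.6%) to 15.5% on chromosome 15 (141 of 909). On chromosome X 9.17% had adult excess. Among contacts at or under 60 kb with at least 30 counts, fetal excess was found for 5.67% in the first batch and 5.18% in the second, and adult excess for 3.04% and 2.52%.

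Promoters with more contacts of fetal excess also had higher fetal counts at their listed contacts at or under 60 kb. In the second batch the median log2 ratio of those summed short contacts was -0.08 for promoters with no contact of fetal excess, 0.01 with 1, 0.08 with 2 to 4 and 0.18 with 5 or more. In the first batch it was -0.02, 0.06, 0.17 and 0.26, the last over 4 promoters.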
